A study of Mus musculus with 6 samples.

Results

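Of the genes of the cell division cycle, 34 were followed in ribosome-bound mRNA of the mouse brain 24 h after stroke, out of 29458 genes measured. They were chosen by name, with earlier results of these data known, and are 11 genes of DNA replication, 21 genes of the G2 phase and mitosis, and the D-type cyclins Ccnd1 and Ccnd2. All 34 had a transcript cluster (the probe group of a gene on the array) that carried their symbol alone. There were 3 arrays from mice 24 h into recovery from tMCAO, a transient occlusion of the middle cerebral artery in which this brain artery is blocked and then reopened, and 3 arrays from sham-operated controls. All mice were CD11brGFP transgenics aged 2 to 3 months, in which the CD11b promoter, active in microglia and other myeloid cells, drives a ribosomal protein RPL10a tagged with Flag and EGFP. The tag allows ribosomes with their mRNA to be pulled out by translating ribosome affinity purification (TRAP), and 100 ng of this RNA per sample went onto Affymetrix MoGene-2_0-st arrays. The labels give 6 mice and 3 biological replicates per group without saying how mice were shared among arrays. They describe the animals both as all male and as both sexes equally. No unpurified RNA was analysed here.

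A dividing cell first passes through G1, in which D-type cyclins with their kinases inactivate the retinoblastoma protein and free E2F transcription factors. E2F factors then drive the genes of DNA replication, and later the MuvB complex with B-MYB and FOXM1 drives the genes of mitosis. Microglia, the resident macrophages of the brain, divide after ischaemia in the mouse, while mature neurons do not divide.

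Promoters of both classes were searched for letters that E2F factors or the MuvB complex bind, and 2 promoters of each class are shown before the values. The sequences are from RefSeq on GRCm38.p6, the mm10 build that the array annotation names, and run from 250 bases before to 50 bases after the annotated start. Capitals in the first pair mark matches to the E2F letters, TTTGGCGC, TTTCGCGC, TTTGCCGC or TTTCCCGC, on either strand. They are those of Mcm3 (chr1:20820263-20820562, minus strand) and Mcm6 (chr1:128359656-128359955, minus strand), the 2 members with the largest difference. Adjoining or overlapping matches run together.

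Mcm3: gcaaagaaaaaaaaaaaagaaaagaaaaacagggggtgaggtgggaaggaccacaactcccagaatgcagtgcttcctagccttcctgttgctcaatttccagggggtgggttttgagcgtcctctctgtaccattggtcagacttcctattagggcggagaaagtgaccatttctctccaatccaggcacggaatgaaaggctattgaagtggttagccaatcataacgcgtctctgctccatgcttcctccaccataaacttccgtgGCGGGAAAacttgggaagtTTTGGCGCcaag

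Mcm6: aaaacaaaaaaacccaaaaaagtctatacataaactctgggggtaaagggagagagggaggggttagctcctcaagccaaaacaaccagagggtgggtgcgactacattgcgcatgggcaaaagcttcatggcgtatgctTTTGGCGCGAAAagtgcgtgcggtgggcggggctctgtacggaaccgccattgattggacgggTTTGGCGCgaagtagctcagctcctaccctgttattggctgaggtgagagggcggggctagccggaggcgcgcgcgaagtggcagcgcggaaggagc

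Capitals in the second pair mark the cell cycle genes homology region (CHR), TTTGAA or TTTAAA on either strand, which the MuvB complex binds. They are the promoters of Ube2c (chr2:164769679-164769978, plus strand) and Plk1 (chr7:122159185-122159484, plus strand), mitosis genes with the second largest difference in their class and the lowest.

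Ube2c: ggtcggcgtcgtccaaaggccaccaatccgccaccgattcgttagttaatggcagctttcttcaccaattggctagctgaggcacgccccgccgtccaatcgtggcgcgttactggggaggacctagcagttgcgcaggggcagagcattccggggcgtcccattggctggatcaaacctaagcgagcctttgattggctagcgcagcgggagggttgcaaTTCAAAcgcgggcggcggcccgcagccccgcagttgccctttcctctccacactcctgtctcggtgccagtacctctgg

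Plk1: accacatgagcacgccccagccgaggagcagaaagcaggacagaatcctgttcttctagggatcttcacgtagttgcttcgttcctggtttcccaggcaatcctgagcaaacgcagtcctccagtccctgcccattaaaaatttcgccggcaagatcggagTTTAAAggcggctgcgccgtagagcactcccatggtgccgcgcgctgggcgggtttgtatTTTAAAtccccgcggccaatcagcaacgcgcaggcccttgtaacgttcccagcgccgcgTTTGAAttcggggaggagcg

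RefSeq promoters were matched for 10 of the 11 replication members and 16 of the 21 mitosis members. The E2F letters were in 5 of 10 replication promoters (50%) and in 1 of 16 mitosis promoters (6.25%), against 2.6% of 27025 genes. The CHR letters were in 4 of 10 replication promoters (40%) and in 14 of 16 mitosis promoters (87.5%), against 30.57% of all genes. CCAAT, the letters bound by NF-Y, was in 7 of the replication and 14 of the mitosis promoters, against 41.06% of all genes. E2F letters were thus more frequent in the replication class and CHR letters in the mitosis class, without a clean division: Mcm2, Rrm2 and Tk1 had CHR and no E2F letters, Mcm5 had both, and so did the mitosis gene Cdk1. A gene was counted once where it had several windows, and a match is a description of letters.

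**Figure D1:**
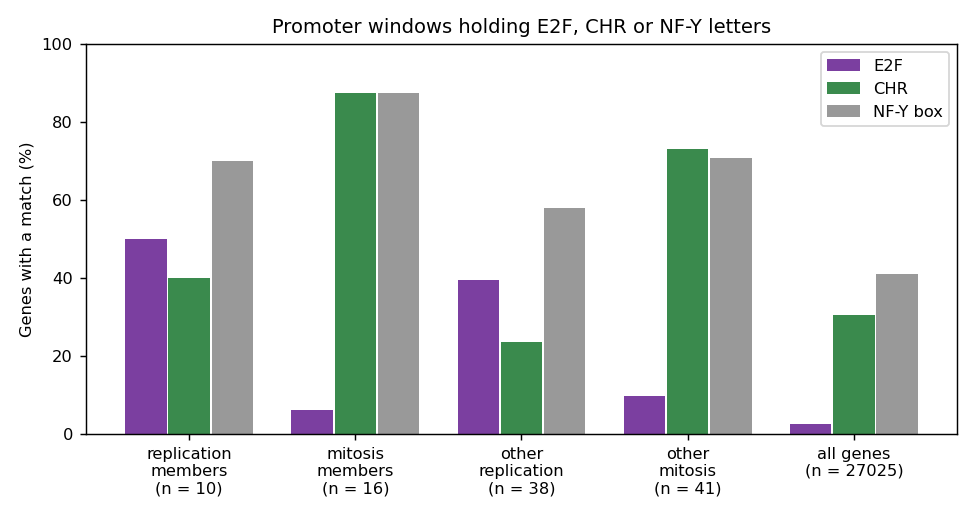
Share of genes (%) whose promoter window of 300 bases holds a match on either strand to the letters of E2F, CHR or the NF-Y box, for the replication and mitosis members, the other genes of the same processes and all genes, with the number of genes matched under each. The E2F bar stands at 50% in replication members and 6.25% in mitosis members, and the CHR bar at 40% and 87.5%.

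None of the 34 genes passed the threshold in stroke. By limma with Benjamini-Hochberg adjustment over all genes, 0 members were higher and 0 lower at an adjusted p under 0.05, where 0.421% of all genes were higher and 0.00339% lower. The lowest adjusted p among them was 0.249, for Mcm3. At an unadjusted p under 0.05, 5 members were higher and 0 lower, namely Mcm3, Mcm6, Mcm5, Nusap1 and Ube2c, against 3.69% and 2.07% of all genes. In the authors' deposited table the count of members under 0.05 was likewise 0 by its false discovery rate and 5 by its p-value. Its fold changes differed in size for some members, and in direction for Bub1 and Cdk1. They were 1.06-fold and 1.03-fold there, against log2 differences of -0.14 and -0.01 here. In the limma fit most differences were above 0, in 26 of 34 members (76.5%) against 47.2% of all genes. The median member difference was 0.18 on the log2 scale, against -0.01 for all genes. In 31 of the 34 members the upper end of the 95% confidence interval of the difference was below 1 on the log2 scale, which is a doubling. The exceptions were Mcm3, Mcm6 and Mcm7, with upper ends at 2.07-fold, 2.02-fold and 2.04-fold.

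**Figure D2:**
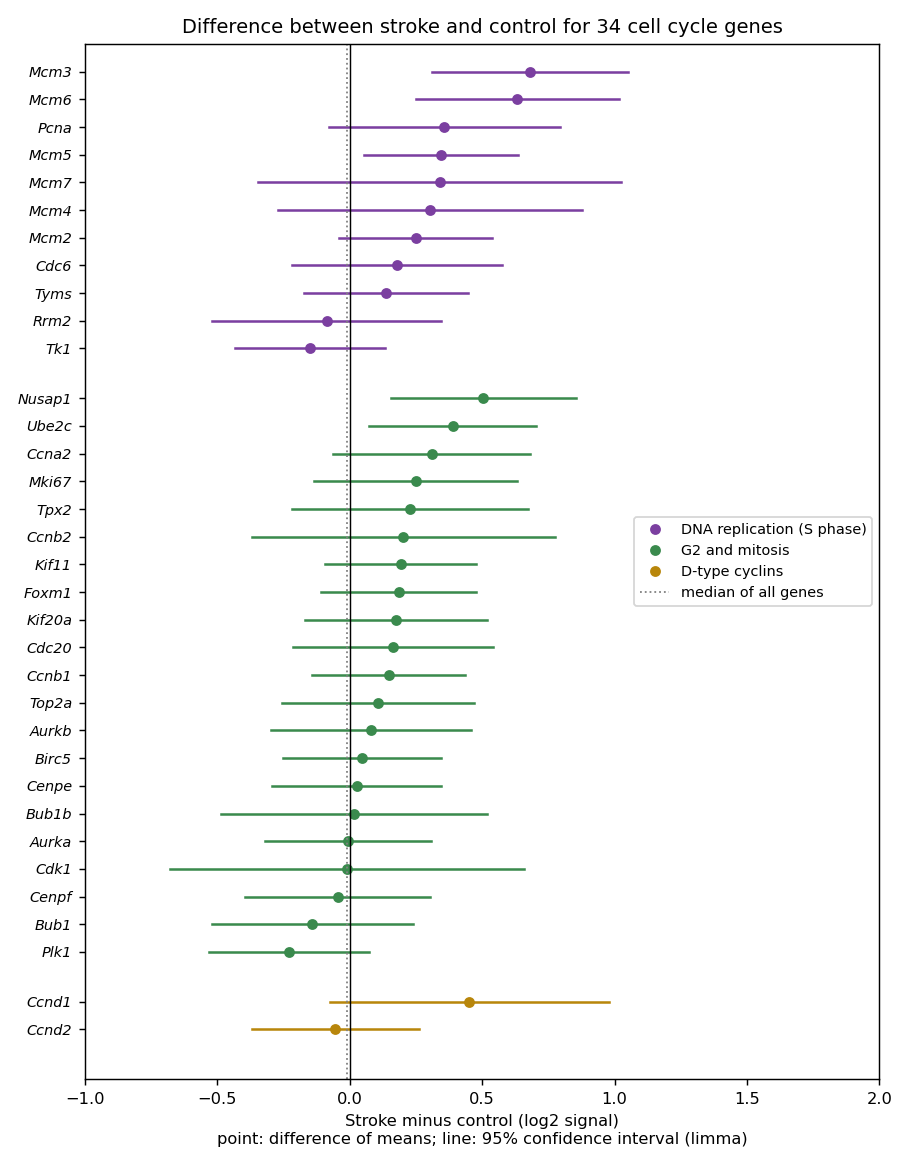
Difference between stroke and control (log2 signal, horizontal axis) for each of the 34 genes, with its 95% confidence interval from limma, grouped by role and ordered by size. The dotted line is the median of all genes at -0.01; Mcm3 lies farthest right at 0.68 and Plk1 farthest left at -0.23, and 5 intervals lie wholly above 0.

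Arrays bearing the same number in both groups deviated together, as set out with the processing, so differences are also given within each number. Arrays numbered 1 and 3 also deviated together across numbers, less strongly, so the pairing of these is less distinct than that of number 2. Of the members, 17 of 34 were higher in stroke in 3 of 3 pairs, against 16.8% of all genes, and 2 were lower in 3 of 3, against 17.6%. With the replicate number as a block in limma, 9 members had an unadjusted p under 0.05, all higher, against 6.15% of all genes higher and 4.97% lower in that fit. They were the 5 above with Ccnd1, Pcna, Mcm4 and Mcm7. None passed after adjustment in that fit either, where 0.519% of all genes were higher and 0.0102% lower, and the lowest adjusted p was 0.0872, for Mcm6.

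Mcm2 to Mcm7 encode the 6 subunits of the ring that is loaded onto replication origins and unwinds DNA as the replicative helicase. All 6 were higher in stroke in each of the 3 pairs. Mcm3 (chromosome 1, 20802966 to 20820312) had signals of 6.29, 5.83 and 6.01 in stroke arrays 1, 2 and 3, against 5.44, 5.21 and 5.44 in control arrays 1, 2 and 3. Every stroke value was above every control value. The difference of 0.68 ± 0.16 (log2, SE), or 1.60-fold, had an unadjusted p of 0.00272 and did not pass (limma adjusted p = 0.249, and 0.0935 with the block). Mcm6 (chromosome 1, 128331575 to 128359705) had 6.88, 6.55 and 6.88 in stroke arrays, against 6.30, 5.90 and 6.22 in control arrays. Its groups did not overlap either, and array 2 was the lowest in both. The difference was 0.63 ± 0.17, or 1.55-fold (limma adjusted p = 0.353, and 0.0872 with the block).

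Mcm5 had 6.51, 6.57 and 6.45 in stroke arrays, against 6.22, 6.20 and 6.08 in control arrays, without overlap. Its difference was 0.34 (limma adjusted p = 0.723). Mcm2 had 6.50, 6.32 and 6.42 in stroke arrays, against 6.14, 6.15 and 6.20 in control arrays, again without overlap, at a difference of 0.25 (limma adjusted p = 0.959). Groups without overlap in the higher direction were found for 9 of 34 members, against 6.34% of all genes, and in the lower direction for 2, against 4.89%.

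In Mcm4 and Mcm7 the spread among arrays was wider than the difference. Mcm4 had 7.20, 6.65 and 7.33 in stroke arrays, against 6.89, 6.31 and 7.06 in control arrays. Mcm7 had 6.80, 6.10 and 6.82 in stroke arrays, against 6.69, 5.65 and 6.37 in control arrays. Both groups overlapped, and array 2 was the lowest of its group for both genes. The differences were 0.30 and 0.34, with p values unadjusted of 0.257 and 0.288, and of 0.0243 and 0.0315 with the block. Averaged over the 6 subunits, the stroke minus control difference was 0.42, 0.43 and 0.43 (log2) in pairs 1, 2 and 3.

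**Figure D3:**
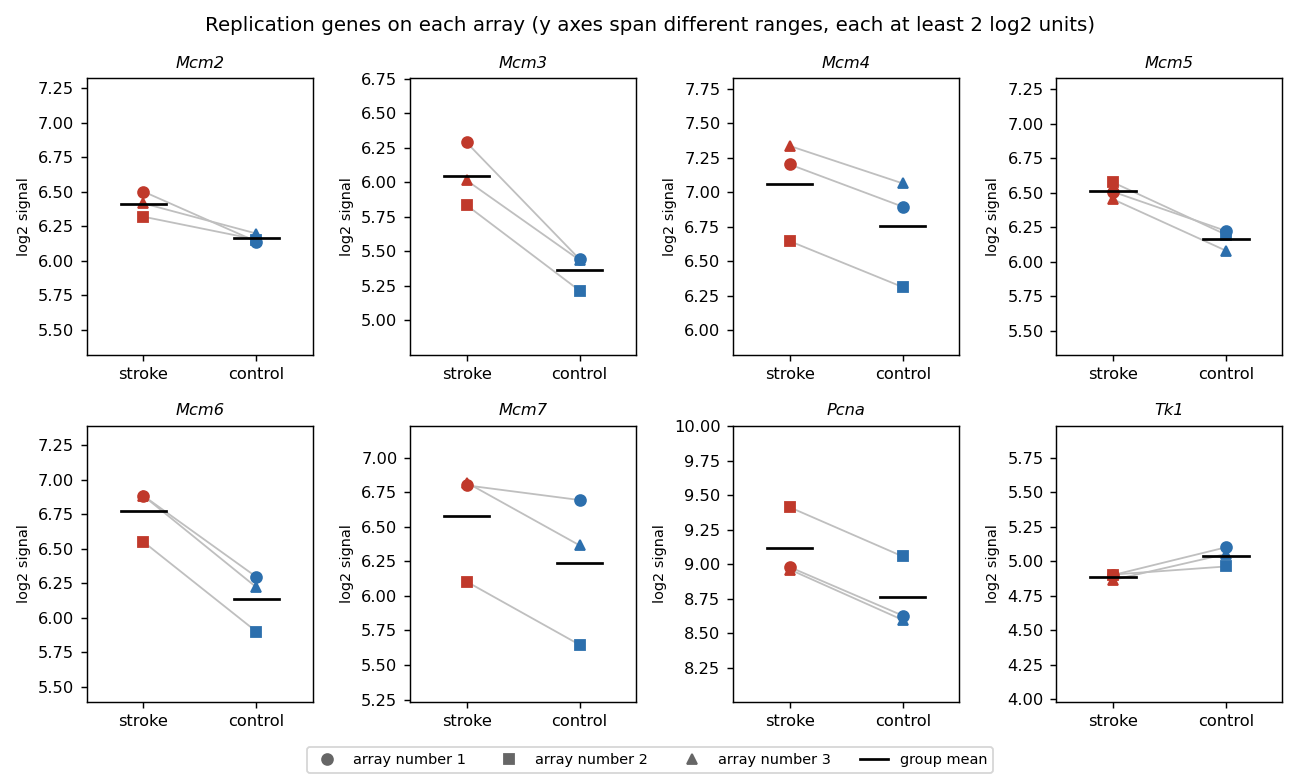
Log2 signal of the 6 MCM helicase subunits, Pcna and Tk1 on each stroke and control array, with grey lines joining arrays of the same number and black bars for group means (n = 3 arrays per group). For each MCM gene the 3 lines run downward from stroke to control, and for Tk1 they run upward.

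Of the other 5 replication members, Pcna was also higher in each pair and the other 4 were not. Pcna, the sliding clamp that holds DNA polymerases on their template, had 8.98, 9.41 and 8.96 in stroke arrays, against 8.63, 9.06 and 8.60 in control arrays. The pair differences were close to one another, array 2 was the highest of each group, and the groups overlapped. The difference was 0.36 (95% interval -0.08 to 0.79, limma adjusted p = 0.969). Cdc6, which loads the helicase, and the thymidylate synthase gene Tyms differed by 0.18 and 0.14, each higher in 2 of 3 pairs. Rrm2, the regulated subunit of ribonucleotide reductase, had 5.25, 5.36 and 5.32 in stroke arrays, against 5.35, 5.78 and 5.08 in control arrays. Its stroke values lay within the range of its control values, at a difference of -0.09. Thymidine kinase Tk1, which salvages thymidine for DNA synthesis, had 4.90, 4.90 and 4.87 in stroke arrays, against 5.10, 4.96 and 5.05 in control arrays. All 3 stroke values were below the controls, by 0.15 on average (difference -0.15, 95% interval -0.43 to 0.13, limma adjusted p = 1). The mean signals of Cdc6 and Tk1, 4.99 and 4.96, were below the lowest array median of 5.23. Over the 5 replication members of this paragraph the mean pair differences were 0.13, -0.08 and 0.20.

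Among mitosis members the largest differences were those of Nusap1 and Ube2c. Nusap1, which binds and bundles spindle microtubules, lies on chromosome 2 (119618298 to 119650165). It had 5.96, 5.96 and 5.80 in stroke arrays, against 5.19, 5.61 and 5.41 in control arrays. The groups did not overlap. The difference was 0.50 ± 0.15, or 1.42-fold (limma adjusted p = 0.505, and 0.257 with the block). Ube2c, the ubiquitin-conjugating enzyme that works with the anaphase-promoting complex to destroy cyclin B, had 5.46, 5.57 and 5.29 in stroke arrays, against 5.01, 4.99 and 5.16 in control arrays. Again no stroke value reached down to a control value, at a difference of 0.39 ± 0.14, or 1.31-fold (limma adjusted p = 0.678).

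The usual markers of dividing cells, Mki67 and Top2a, differed less than Nusap1 and Ube2c. Mki67, the gene of the proliferation antigen Ki-67, had 6.13, 5.80 and 5.63 in stroke arrays, against 5.74, 5.48 and 5.60 in control arrays. The groups overlapped, and array 1 was the highest in both. The difference was 0.25 (95% interval -0.13 to 0.63, limma adjusted p = 1). Top2a, the topoisomerase that untangles sister chromatids, had 4.95, 4.48 and 4.65 in stroke arrays, against 4.54, 4.54 and 4.67 in control arrays. It was higher in 1 of 3 pairs, and its difference of 0.11 became -0.02 without stroke replicate 1. Its mean signal of 4.64 was below the lowest array median of 5.23, so it was not shown to be above background.

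Of the mitotic kinase Cdk1 and its cyclins, Ccnb2 had 7.06, 6.23 and 6.95 in stroke arrays, against 6.74, 6.21 and 6.69 in control arrays. The arrays numbered 2 were the lowest of each group, the groups overlapped and the difference was 0.20 (limma adjusted p = 1). Ccnb1 and Ccna2 (cyclin A2) differed by 0.15 and 0.31, and Cdk1 by -0.01, with a 95% interval from -0.68 to 0.66. Plk1, the polo-like kinase of mitotic entry and spindle assembly, had 6.09, 5.92 and 5.99 in stroke arrays, against 6.10, 6.28 and 6.30 in control arrays. All stroke values were below all control values, and this was the lowest difference of the 34 at -0.23 (95% interval -0.53 to 0.07, limma adjusted p = 0.993). The spindle checkpoint kinase gene Bub1 had 3.83, 3.79 and 3.57 in stroke arrays, against 3.75, 4.15 and 3.72 in control arrays. Its groups overlapped, at a difference of -0.14, which ranged from -0.22 to -0.0023 when single arrays were left out. The mean signals of Bub1, Ccnb1 and Cdk1, 3.80, 3.75 and 5.15, were below the lowest array median of 5.23.

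The remaining mitosis members differed by -0.05 to 0.23. They were Tpx2, Kif11, Foxm1, Kif20a, Cdc20, Aurkb, Birc5, Cenpe, Bub1b, Aurka and Cenpf. They include spindle motors (Kif11, Kif20a and Cenpe), the Aurora kinases and the transcription factor Foxm1. Kif11, Foxm1 and Ccnb1 had groups without overlap, at 0.19, 0.18 and 0.15. In both classes taken whole, the median difference was 0.30 for the 11 replication members and 0.15 for the 21 mitosis members. The 5 replication members other than the MCM genes had a median of 0.14, so the higher replication median came with the MCM genes. The classes differed in signal, with a mean in control arrays of 6.08 for replication and 5.16 for mitosis, the latter below the lowest array median of 5.23. Among genes above the median of signal, 8 replication members had a median difference of 0.34 and 6 mitosis members 0.19. The part of signal level in this contrast was not tested. By pair, the mean difference was 0.29, 0.20 and 0.33 for replication and 0.21, 0.10 and 0.07 for mitosis. The replication class was the higher by 0.08, 0.11 and 0.26 in the 3 pairs, and no test was made of this contrast, since the members were chosen with results known. The 6 members with E2F letters had a median difference of 0.34 and the 20 without them 0.12, which largely restates the MCM genes, as 4 of the 6 are Mcm3, Mcm5, Mcm6 and Mcm7. Nusap1, the mitosis member with the largest difference, had neither E2F nor CHR letters in its window, and Ube2c and Plk1, printed above, both had CHR.

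**Figure D4:**
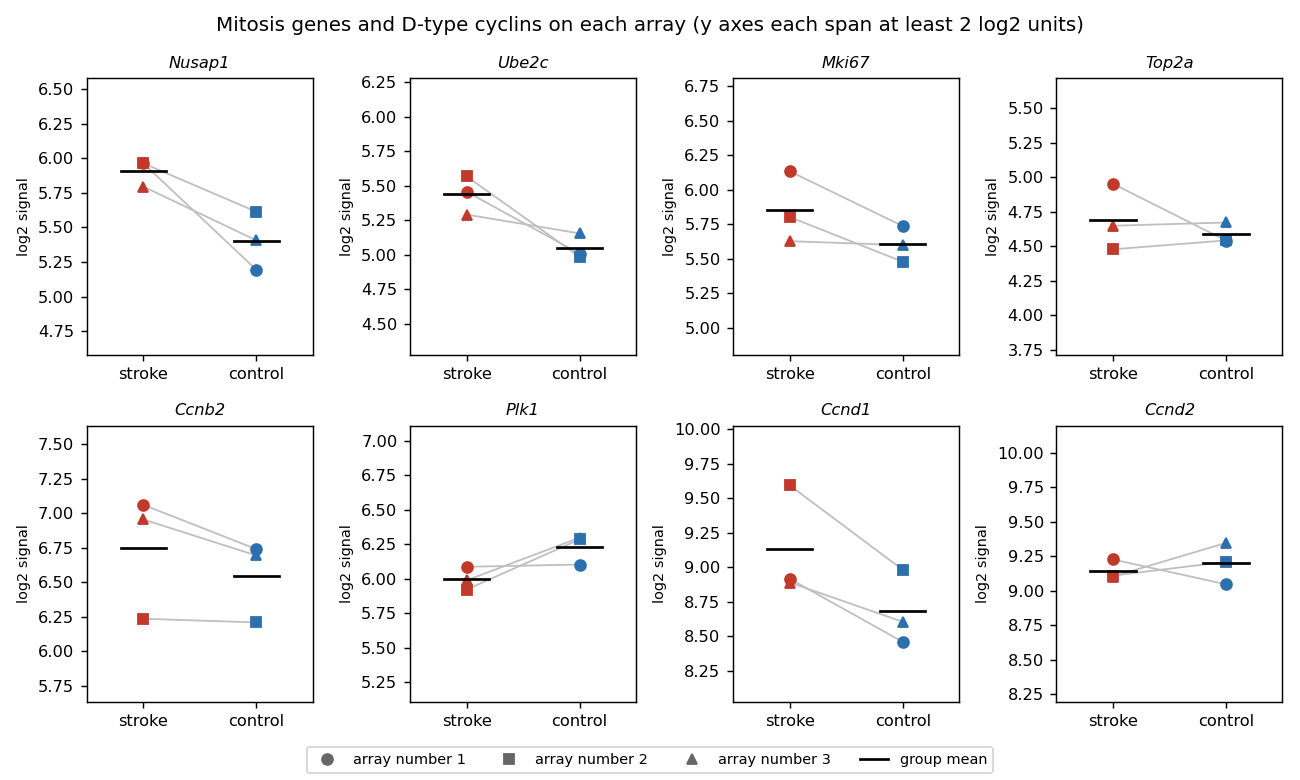
Log2 signal of 6 mitosis genes and the D-type cyclins on each stroke and control array, with grey lines joining arrays of the same number and black bars for group means (n = 3 arrays per group). Nusap1 and Ube2c have all stroke points above all control points, Plk1 has them below, and Mki67, Top2a, Ccnb2, Ccnd1 and Ccnd2 overlap.

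Ccnd1, the cyclin that starts the G1 phase with Cdk4 or Cdk6, had 8.92, 9.59 and 8.89 in stroke arrays, against 8.46, 8.98 and 8.61 in control arrays. Array 2 was the highest in both groups, so the groups overlapped although each pair was higher in stroke. The difference was 0.45, or 1.37-fold, with an unadjusted p of 0.0837 and of 0.00781 with the block (limma adjusted p = 0.959 and 0.260). Ccnd2 had 9.23, 9.11 and 9.10 in stroke arrays, against 9.05, 9.21 and 9.35 in control arrays. It was lower in 2 of 3 pairs at a difference of -0.05 (95% interval -0.37 to 0.26).

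Other genes of the cycle were taken from lists drawn up by function. Among 48 further replication genes, 0 passed in either direction by limma, against 0.421% of all genes higher and 0.00339% lower. The median difference was 0.13. At an unadjusted p under 0.05, 9 were higher and 0 lower, against 3.69% and 2.07% of all genes. Differences were above 0 in 42 of 48, against 47.2% of all genes. The lowest p values were those of Pole2, a subunit of DNA polymerase epsilon, of the clamp loader subunit Rfc4 and of Dtl, a ubiquitin ligase adaptor that removes the licensing factor Cdt1. Pole2 had 4.17, 4.42 and 4.12 in stroke arrays, against 3.74, 3.56 and 3.64 in control arrays, at a difference of 0.59 (limma adjusted p = 0.264). Rfc4 differed by 0.39 and Dtl by 0.42. Pole2 and Dtl had mean signals of 3.94 and 4.47, below the lowest array median of 5.23, so they were not shown to be above background. Gmnn, the inhibitor of Cdt1, differed by 0.21.

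Among 46 measured of 47 further mitosis genes, 0 passed by limma, against 0.421% of all genes higher and 0.00339% lower. The median difference was 0.09. At an unadjusted p under 0.05, 5 were higher and 0 lower, against 3.69% and 2.07% of all genes. Kif18a, a kinesin that aligns chromosomes, had 5.78, 5.66 and 5.81 in stroke arrays, against 4.79, 4.95 and 5.08 in control arrays. The groups stood well apart at a difference of 0.81 ± 0.14, or 1.75-fold, just outside the threshold (limma adjusted p = 0.0667, and 0.0615 with the block). Gtse1, a microtubule-binding protein of G2, and Ndc80, of the outer kinetochore, differed by 0.88 and 0.63 (limma adjusted p = 0.276 and 0.650). The mean signal of Ndc80, 4.41, was below the lowest array median of 5.23.

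Of 23 regulators of G1 and of entry into S phase, 0 passed by limma without the block and 1 with it. Of all genes, 0.421% passed as higher and 0.00339% as lower without the block. With the block these shares were 0.519% and 0.0102%. At an unadjusted p under 0.05 without the block, 4 were higher and 1 lower, against 3.69% and 2.07% of all genes. The lower gene was Mycn, of the same family as Myc and named after its value was seen. It had 5.70, 5.59 and 5.71 in stroke arrays, against 6.09, 6.02 and 5.98 in control arrays, at a difference of -0.37. Myc, a transcription factor that promotes growth and G1 progression, had 7.97, 7.67 and 7.59 in stroke arrays, against 7.01, 6.90 and 6.81 in control arrays. The groups did not overlap, and the difference of 0.84 ± 0.15, or 1.79-fold, had a limma adjusted p = 0.0866, and 0.0465 with the block. Cdk6, the kinase partner of D-type cyclins, differed by 0.74 and E2f8, a repressor of E2F targets, by 0.63 (limma adjusted p = 0.126 and 0.374). The mean signal of E2f8, 5.14, was below the lowest array median of 5.23.

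Without the block, 1 listed cell cycle gene passed the threshold, the inhibitor Cdkn1a, and with the block Myc, Gadd45b and Gadd45g passed as well. Cdkn1a encodes p21, which blocks cyclin-dependent kinases and binds PCNA, and is a classical target of p53. It had 9.93, 11.01 and 10.28 in stroke arrays, against 8.40, 8.81 and 8.33 in control arrays. Every stroke value exceeded every control value by more than 1 log2 unit. Cdkn1a rose by 1.90 ± 0.27 (log2, SE), or 3.73-fold (limma adjusted p = 0.0372, and 0.0140 with the block). The call was kept without stroke replicate 2 (adjusted p = 0.0471) and ended without each of the other 5 arrays, at adjusted p from 0.0519 to 0.196, while the difference stayed between 1.60 and 2.13. It was the 1 of 21 listed inhibitors and checkpoint genes to pass, with a list median of 0.26, and with the block 3 passed. Over all genes, 0.421% were called higher without the block and 0.519% with it. An upstream promoter of Cdkn1a (chr17:29090729-29091028, plus strand) is shown because it holds the paired letters of a p53 element, CATGNNNNNNCATG, in capitals. These letters were in 0.83% of the 27025 genes, and the call of Cdkn1a says nothing of p53 binding there.

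Cdkn1a: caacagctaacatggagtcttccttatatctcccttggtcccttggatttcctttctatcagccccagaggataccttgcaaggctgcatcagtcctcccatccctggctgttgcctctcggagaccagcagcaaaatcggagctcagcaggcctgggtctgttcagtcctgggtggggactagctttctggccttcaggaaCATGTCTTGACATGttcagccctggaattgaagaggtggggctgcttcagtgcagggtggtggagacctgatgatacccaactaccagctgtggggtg

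Gadd45b and Gadd45g, stress sensors that restrain the G2 to M transition, were singled out after their values were seen. Gadd45b had 9.09, 9.50 and 9.07 in stroke arrays, against 7.98, 8.24 and 8.30 in control arrays. Gadd45g had 8.63, 9.07 and 8.80 in stroke arrays, against 7.61, 8.01 and 7.83 in control arrays. Neither gene's groups overlapped. Their differences of 1.05 and 1.02 lay just outside the threshold in limma (adjusted p = 0.0547 and 0.0614) and inside it with the block (adjusted p = 0.0452 and 0.0228).

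**Figure D5:**
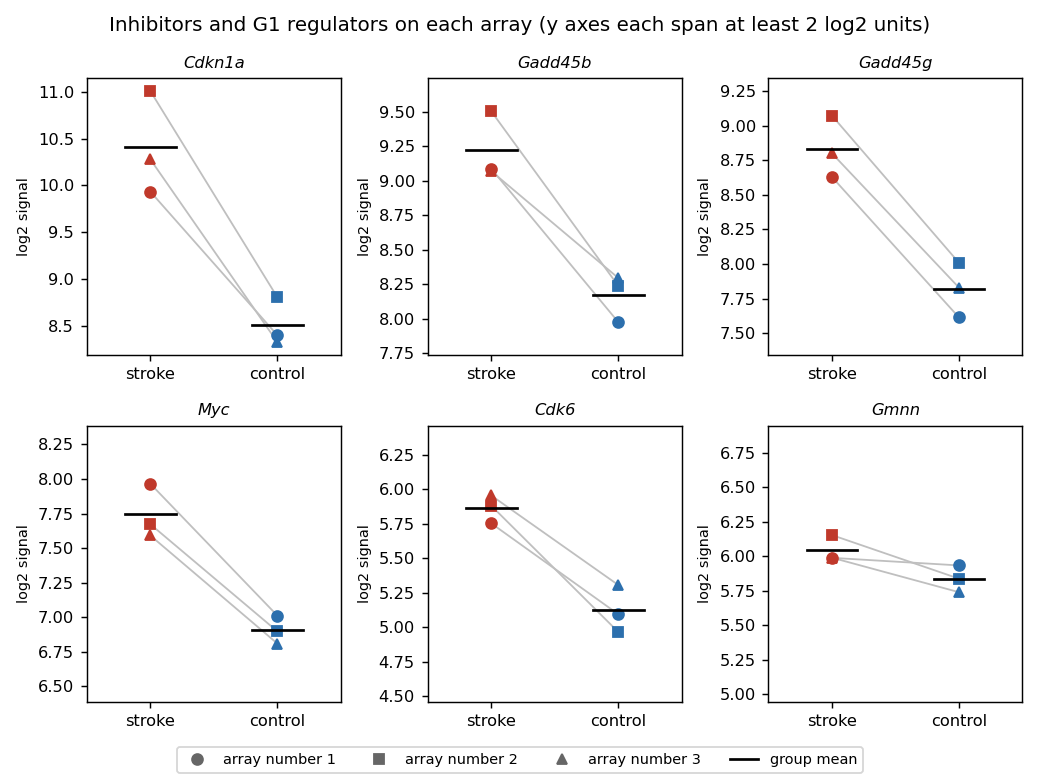
Log2 signal of Cdkn1a, Gadd45b, Gadd45g, Myc, Cdk6 and Gmnn on each stroke and control array, with grey lines joining arrays of the same number and black bars for group means (n = 3 arrays per group). In each panel the stroke points lie above the control points, by 1.90 log2 units on average for Cdkn1a and by 0.21 for Gmnn.

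Cell type markers are given because the purified RNA can hold mRNA of several dividing and non-dividing cells, and in such samples fewer cells of a type and less RNA per cell cannot be told apart. Mean log2 signal over 18 homeostatic microglia markers was 7.42 to 7.64 in stroke arrays and 6.88 to 7.25 in control arrays, with 0 called by limma (7 higher and 1 lower at an unadjusted p under 0.05). For 12 monocyte markers it was 5.47 to 5.81 in stroke arrays and 5.13 to 5.29 in control arrays, with 1 called higher. For 13 neutrophil markers it was 5.28 to 5.31 in stroke arrays and 4.58 to 4.77 in control arrays, with 2 called higher. The stroke and control arrays did not overlap in these 3 lists. Median differences were 0.37 for microglia, 0.40 for monocyte and 0.24 for neutrophil markers. Among the 13 neutrophil markers 11 differences were above 0 and 2 below, and the largest was 2.82, for Lcn2. With the block, 2 microglia markers passed, the complement genes C1qb and C1qc (adjusted p = 0.0224 and 0.0453), and 4 neutrophil markers did, Lcn2 and Il1r2 with S100a8 and S100a9 (adjusted p = 0.0165 and 0.0432 for the last pair), all higher and named after their values were seen. The count for monocyte markers stayed at 1 with the block. For 9 astrocyte markers the mean was 9.35 to 9.48 in stroke arrays and 8.97 to 9.17 in control arrays, with 0 called by limma (4 higher and 0 lower unadjusted). Their median difference was 0.32. Gfap, on the same list, lies on a cluster shared with Gm39395 and is not among the 9. That cluster was at 11.13 ± 0.17 in stroke arrays and 9.30 ± 0.34 in control arrays (log2 signal, SD). Its difference of 1.82 passed when fitted with every cluster that carries a symbol (limma adjusted p = 0.0139). Levels of these 4 lists were thus higher in stroke along with the MCM genes, and their part in the result was not tested. Over 12 markers of oligodendrocyte precursors and neuroblasts, cells that divide in the adult brain, the median difference was -0.03 and 0 were called by limma (1 higher and 1 lower unadjusted). Neuron markers (mean 10.99 to 11.14 in stroke arrays and 11.02 to 11.17 in control arrays, 10 genes) and oligodendrocyte markers (8 genes) had median differences of -0.04 and 0.03. The 10 endothelial and mural markers had -0.09, the 8 lymphocyte markers -0.17 and the 4 red cell markers -0.33. By limma 0 genes of these 5 lists were called, and unadjusted p values were under 0.05 for 1 higher and 1 lower oligodendrocyte marker, 1 higher endothelial or mural marker and 2 lower lymphocyte markers. For comparison with every marker list, 3.69% of all genes were higher and 2.07% lower at an unadjusted p under 0.05. After adjustment 0.421% of all genes were called higher, and 0.519% with the block. The signal of the cell cycle genes was not shown to come from myeloid cells alone.

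Over all genes, 124 were higher and 1 lower in stroke. Array medians lay between 5.23 and 5.35 on the log2 scale. The arrays numbered 2 stood apart from the others on the first principal component. No detection calls were used, and 11 of the 34 members had a mean signal below the lowest array median, so their signal was not shown to be above background. They were Cdc6, Tk1, Top2a, Cdk1, Ccnb1, Birc5, Bub1, Aurkb, Kif20a, Cenpe and Cenpf. With the 4 arrays numbered 1 and 3 alone, a setting added once the values had been seen, 0 members passed, all 6 MCM differences stayed above 0, and Cdkn1a stayed called. In that setting 6 members had an unadjusted p under 0.05, but the share of all genes is not given, so the count cannot be judged.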

How the data were processed

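The authors deposited a log2 signal for each of 41345 transcript clusters and 6 arrays. Per the series' design text the arrays were processed in Transcriptome Analysis Console 3.0, and per the file headers annotated with na36 on mm10; the way signals were summarised and normalized is not stated in the sources used here. A second deposited table gives, per the file headers, group averages (log2), a signed fold change (a score), a p-value and its false discovery rate. Symbols came from it; the 29971 clusters with 1 symbol gave 29458 genes, the brightest cluster being kept. Limma 3.58.1 (R 4.3.3) compared stroke with control over all genes, adjusted by Benjamini-Hochberg, threshold 0.05, no filter, after a test on simulated data. The number of arrays limits precision, and p-values measure the spread between the biological replicates of the labels. Deviations of same-numbered arrays from their group means correlated across genes at r = 0.30, 0.58 and 0.39, so the replicate number was also fitted as a block. Stroke array 1 with control array 3 gave r = 0.24, and stroke array 3 with control array 1 gave 0.13. Pairings of a number 2 array with a number 1 or 3 array lay between -0.46 and -0.31. Members and lists were chosen with earlier results of these data known. All 34 members are described; from the other lists, genes past the threshold or the 3 with the lowest p, and Cdkn1a, Myc and Gmnn. Knl1 and Sgo1 were matched by synonym (Casc5 and Sgol1). Promoters were searched for fixed letters on both strands. Alternatives were other scalings, filters, variance models and leaving out arrays.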

Additional observations from a re-analysis of the deposited data

How the results depend on the processing

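In every setting run, 0 members were called, with a lowest adjusted p between 0.0813 (array weights) and 0.766 (without stroke replicate 1). All 6 MCM differences stayed above 0 in each setting. The count of genes called among all genes was 125. It was 156 with the replicate block, 217 with array weights, 0 without moderation, 70 without both arrays numbered 2 (chosen after the data were seen) and 25 to 74 without single arrays. Without moderation 10 members had an unadjusted p under 0.05, but the share of all genes in that fit is not given, so the count cannot be judged. Without single arrays the median difference ranged from 0.11 to 0.21 for all members, from 0.22 to 0.30 for replication and from 0.048 to 0.17 for mitosis. Small differences turned sign: Ccnd2 was 0.0075 with array weights and -0.13 to 0.018 without single arrays, Rrm2 0.076 without both arrays numbered 2 and -0.25 to 0.10 without single arrays, and Top2a -0.022 to 0.22; the cause was not tested. Cdkn1a had an adjusted p of 0.433 without moderation, and Kif18a of 0.0449 with the dimmest 25% of genes left out and 0.0161 with array weights. Myc, Gadd45b and Gadd45g were past the threshold with the replicate block and with array weights. Gadd45b and Gadd45g were also past it with arrays centred on their median and with either filter on signal. Gadd45b was past it with a trended and robust variance model as well. None of these genes was past it without moderation or without any single array. Among the other cell cycle genes named, the block changed no call.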

Other observations

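Mcm7 lies over the microRNA genes Mir25 and Mir93, and 2 further clusters carry its symbol together with theirs. Fitted together with every cluster that carries a symbol, the cluster of Mir25 and Mcm7 was at 5.51 ± 0.23 in stroke arrays and 5.55 ± 0.16 in control arrays, and that of Mir93 and Mcm7 at 3.19 ± 0.20 in stroke arrays and 3.21 ± 0.29 in control arrays (log2 signal, SD, n = 3 arrays per group). The differences were -0.03 and -0.02 (limma adjusted p = 1 for both). Ccnf, cyclin F, whose only cluster is shared with Mir5134, was at 5.97 ± 0.14 in stroke arrays and 5.86 ± 0.16 in control arrays. Nes, the intermediate filament gene of neural stem cells, also expressed in reactive astrocytes and named after its value was seen, was 2.16-fold higher at 5.97 ± 0.25 in stroke arrays and 4.86 ± 0.31 in control arrays, without passing (limma adjusted p = 0.0917).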
